A study of Mus musculus with 12 samples.

Results

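The genes that carry bile acids through the hepatocyte and conjugate them were followed across low-fat and high-fat hepatocytes of wild-type (WT) and Ptprk knockout (KO) mice. The set was taken by gene symbol and holds 10 of the 52636 genes in the table: Slc10a1, Slco1a1, Slco1a4, Slco1b2, Abcb11, Abcb4, Abcc2, Abcc3, Slc27a5 and Baat. All 10 passed the filter on low values, as did 16563 genes in all. Ptprk encodes protein tyrosine phosphatase receptor kappa, a receptor-type phosphatase.

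The study sequenced polyA RNA from 12 samples, a low-fat and a high-fat sample from each of 6 mice, which gives 4 groups of 3 libraries, 1 for each genotype and fraction. Per the labels' protocols, viable hepatocytes were taken from steatotic livers with a Percoll gradient and differential centrifugation and separated by how much lipid they held. Mice WT1, WT5 and WT6 and mice KO2, KO4 and KO6 are replicates 1 to 3 of their genotype, and replicates are therefore different animals. The labels give each genotype as wild type or PTPRK knockout only. Strain, age, diet and the tissues in which the gene was knocked out are not given in the sources used here. The series' short design text speaks of livers with low and high fat, and the protocol of cells with low and high fat. Each mouse name occurs once in each fraction, and the fractions are treated here as 2 samples of 1 liver.

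Bile acids are made from cholesterol in hepatocytes, joined there to taurine or glycine, pumped into the bile canaliculus and largely returned from the intestine through portal blood. Uptake from blood runs through the sodium-dependent carrier Slc10a1 and the sodium-independent organic anion carriers of the Slco family in the basolateral membrane. Export into bile runs through Abcb11, the bile salt export pump, with Abcb4 supplying phospholipid and Abcc2 carrying glucuronides and other conjugated anions, while Abcc3 exports such anions back to blood. Slc27a5 activates bile acids with coenzyme A, and Baat transfers the activated acid to the amino acid.

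The stretch of 250 bases before the transcription start was read from RefSeq's promoter table (GRCm38.p6) for the members it lists, 7 of 10: the 4 uptake carriers, Abcb11, Abcb4 and Abcc2. Capitals mark the half-site AGGTCA, the core that many nuclear receptors recognise (TGACCT where it lies on the other strand), and the HNF1 half-site GTTAAT. The 5 stretches below are those with a match, and they belong to members that were higher in high-fat cells in every mouse (Slco1a1, Slco1b2, Abcc2) and to members that were lower (Abcb11, Slc10a1).
Slco1a1 (chr6:141946963-141947212, minus strand): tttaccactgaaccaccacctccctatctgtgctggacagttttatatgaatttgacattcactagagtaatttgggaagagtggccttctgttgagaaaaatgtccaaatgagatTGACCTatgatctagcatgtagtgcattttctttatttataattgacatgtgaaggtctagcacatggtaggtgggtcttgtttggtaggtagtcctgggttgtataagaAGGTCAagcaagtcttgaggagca
Slco1b2 (chr6:141629268-141629517, plus strand): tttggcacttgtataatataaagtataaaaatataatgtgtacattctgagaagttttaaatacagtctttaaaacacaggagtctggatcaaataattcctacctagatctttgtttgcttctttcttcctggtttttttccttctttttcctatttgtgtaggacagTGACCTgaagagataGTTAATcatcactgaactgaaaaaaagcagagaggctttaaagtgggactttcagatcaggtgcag
Abcc2 (chr19:43782058-43782307, plus strand): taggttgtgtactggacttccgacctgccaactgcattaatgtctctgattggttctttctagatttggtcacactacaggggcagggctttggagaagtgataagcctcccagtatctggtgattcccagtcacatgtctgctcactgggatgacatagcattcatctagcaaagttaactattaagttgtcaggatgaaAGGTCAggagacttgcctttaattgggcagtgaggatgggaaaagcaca
Abcb11 (chr2:69342617-69342866, minus strand): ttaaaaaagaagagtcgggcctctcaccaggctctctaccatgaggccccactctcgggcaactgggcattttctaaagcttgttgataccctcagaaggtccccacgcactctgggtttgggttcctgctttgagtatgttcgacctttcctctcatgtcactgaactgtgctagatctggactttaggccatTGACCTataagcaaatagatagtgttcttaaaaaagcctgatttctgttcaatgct
Slc10a1 (chr12:80968080-80968329, minus strand): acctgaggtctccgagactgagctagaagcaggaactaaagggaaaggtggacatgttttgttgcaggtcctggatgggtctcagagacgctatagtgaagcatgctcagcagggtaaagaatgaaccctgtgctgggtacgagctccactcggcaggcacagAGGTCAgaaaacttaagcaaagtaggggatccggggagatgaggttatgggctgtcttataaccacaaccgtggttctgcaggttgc
The half-site AGGTCA occurred on either strand in 14.0% of 32851 RefSeq promoter stretches of this length and in those of 5 of the 7 members, counting a member when any of its stretches matched. It lay 81 bases before the start of Slco1b2, 49 before Abcc2, 56 before Abcb11, 87 before the second of 2 listed starts of Slc10a1, and 24 and 134 before Slco1a1. The stretch of the first Slc10a1 start had no match. The bases just after the listed Slco1a4 start were not found in its GENCODE transcripts, so that start is less certain. GTTAAT was found in 6.43% of the stretches and among the members in that of Slco1b2, 66 bases before the start. The HNF4 motif CAAAGTCCA was found in 0.384% of the stretches and in none of the 7 members' stretches. These matches describe letters only. Members that were higher and members that were lower both carried the half-site, so it did not separate them.

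Values are reads per 20 M, the scale to which the authors brought each library, and estimated depths ran from 15.1 to 25 M reads. The members are abundant: their values summed to between 0.491% and 0.647% of a library, and the lowest single value was 457, for Slco1a4. Per kilobase of the principal transcript (GENCODE M21), the mean level over the 12 libraries was highest for Slc27a5 (8670 reads per 20 M per kb), Slco1b2 (6440) and Slc10a1 (5870). Abcb11 (3440) and Baat (3160) followed, then Abcc2 (2130), Abcb4 (2070), Slco1a1 (1990) and Abcc3 (1550), and Slco1a4 was lowest at 256. Of the transcript stretches of 50 bases, 2.6% in Slco1a1 and 2.73% in Slco1a4 also occur in each other or in the related Slco1a5, Slco1a6, Gm5724 and Gm6614, and 3.42% in Abcb4 occur in Abcb1a or Abcb1b, so a small part of their reads could be shared. Exons of Abcb11 overlap Gm13613 and Gm13614 on the opposite strand, and whether the counting used strand is not given in the sources used here.

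High-fat and low-fat cells of the same liver were compared first. In all 6 mice the uptake carriers Slco1b2 and Slco1a1 and the exporters Abcc2 and Abcc3 were higher in the high-fat than in the low-fat library, while the uptake carrier Slc10a1, the bile salt export pump Abcb11 and the activating enzyme Slc27a5 were lower. After scaling, 3.88% of tested genes with a mean of at least 500 were higher in all 6 mice and 21.9% lower. The 3 lower members of 10 were thus near the share of genes of like level. Mean differences ran from 0.58 on the log2 scale for Abcc3, a fold of 1.5, to -0.21 for Slc10a1, a fold of 0.862. When the fit held a term for the mouse, Abcc3, Slco1b2 and Slco1a1 rose in high-fat cells over both genotypes. Without that term no member passed the test, and with a correlation between libraries of the same mouse in its place 1 did, Slco1b2 (limma adjusted p = 0.0102). After scaling, Slco1a4, Abcb4 and Baat did not move the same way in all mice, though Abcb4 did in the deposited values.

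**Figure D1:**
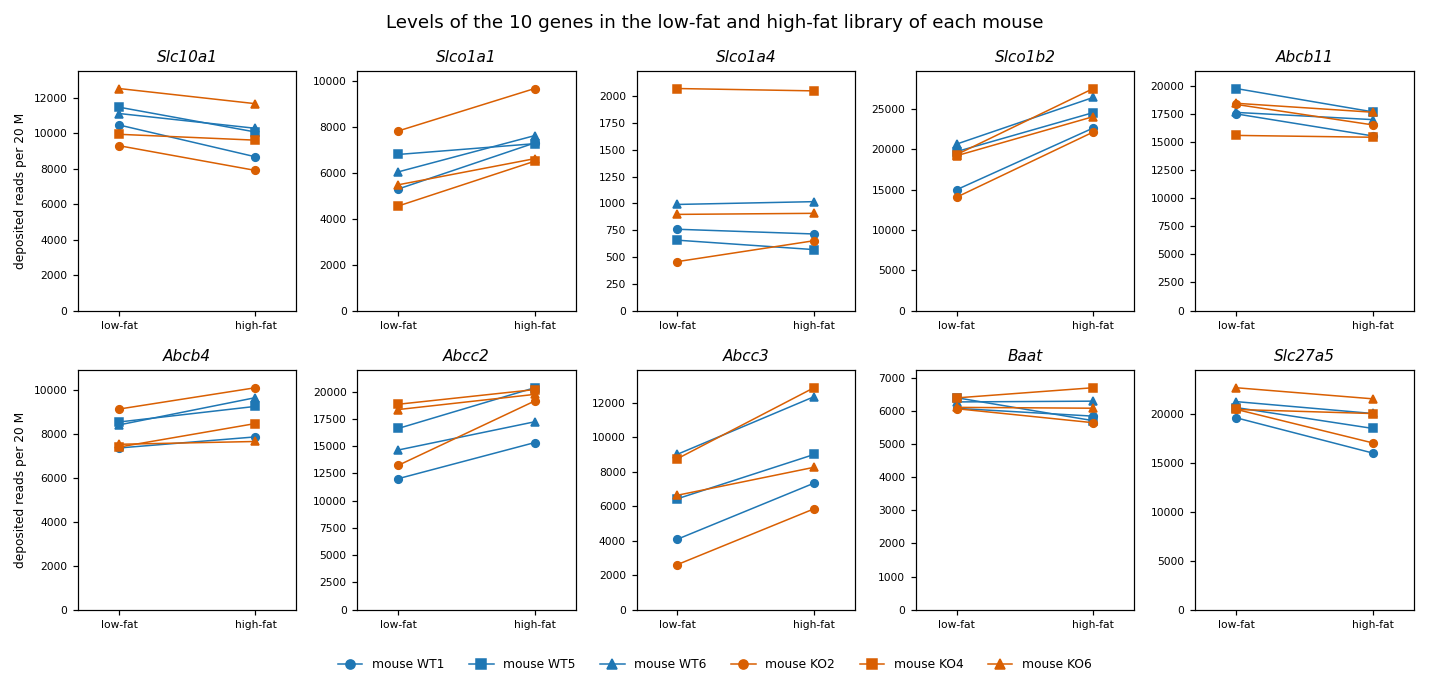
Level of each of the 10 genes (reads per 20 M, axes from 0) in the low-fat and high-fat library of each mouse, joined by a line; blue marks WT and orange KO mice. In these deposited values all 6 lines rise for Slco1a1, Slco1b2, Abcb4, Abcc2 and Abcc3, and all 6 fall for Slc10a1, Abcb11 and Slc27a5. Mouse KO4 stands far above the others for Slco1a4.

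Among the uptake carriers, Slco1b2, a liver carrier of unconjugated bile acids and many drugs, had the most even difference. It stood at 15007, 19735 and 20672 reads per 20 M in the low-fat libraries of mice WT1, WT5 and WT6, and at 22664, 24576 and 26458 in their high-fat libraries. In mice KO2, KO4 and KO6 it was 14081, 19367 and 19224 in low-fat and 22163, 27563 and 24072 in high-fat cells. In these deposited values every high-fat library lay above every low-fat library, and after scaling the WT fractions overlapped and the KO fractions did not. The within-mouse difference (high-fat minus low-fat, log2 after scaling) averaged 0.405 ± 0.106 (SD, n = 6 mice), a fold of 1.32. In limma over both genotypes its log2 fold change had SE 0.0649 and adjusted p = 0.00892 with the mouse as a block, and adjusted p = 0.0767 without it (SE 0.119). Leaving out mouse WT1 from the blocked fit took the adjusted p to 0.0529 at a log2 fold change of 0.388.

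Slco1a1, a sodium-independent anion carrier that is male-predominant in mouse liver, was 5303, 6811 and 6051 reads per 20 M in the WT low-fat and 7314, 7282 and 7634 in the WT high-fat libraries. The KO mice had 7837, 4561 and 5487 in low-fat and 9689, 6517 and 6628 in high-fat cells. The WT fractions did not overlap, the KO fractions did, and mouse KO2 was the highest in both fractions. Its within-mouse difference averaged 0.28 ± 0.14 (SD, n = 6 mice) on the log2 scale, a fold of 1.21. The blocked limma fit over both genotypes gave SE 0.0613 and adjusted p = 0.0278, and the fit without the block 0.319. With a same-mouse correlation in place of the block the call was lost (limma adjusted p = 0.0883, SE 0.0972), and also with the block and trimmed means over all genes (0.0565). The blocked call was lost without mouse WT1, WT5, WT6 or KO6 in turn (adjusted p = 0.118, 0.0644, 0.094 and 0.0974).

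Slc10a1, the main sodium-dependent carrier of conjugated bile acids, went the other way. Its WT values were 10476, 11480 and 11122 reads per 20 M in low-fat and 8677, 10077 and 10286 in high-fat cells, with no overlap. Its KO values were 9305, 9948 and 12532 in low-fat and 7908, 9617 and 11676 in high-fat cells, with overlap. The within-mouse difference averaged -0.21 ± 0.14 (SD, n = 6 mice). It did not pass limma's test over both genotypes (adjusted p = 0.0729 with the block, SE 0.0647, and 0.395 without it, SE 0.122). The difference was largest in mice KO2 (-0.405) and WT1 (-0.36). In the blocked fit without these 2 mice it was -0.11 (limma adjusted p = 0.225).

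Slco1a4, a related carrier that also handles unconjugated bile acids, differed more between mice than between fractions. Its within-mouse difference had no shared direction, from -0.178 in mouse WT1 to 0.341 in mouse KO2 (log2 after scaling). The WT mice had 759, 657 and 991 reads per 20 M in low-fat and 715, 569 and 1017 in high-fat cells. The KO mice had 457, 2074 and 898 in low-fat and 652, 2052 and 908 in high-fat cells. Both libraries of mouse KO4 were more than any other library of the series for this gene, at 2074 and 2052 against at most 1017. The standard deviation between mice, taken on the mean of both fractions, was 0.692 on the log2 scale, against a median of 0.117 over tested genes with a mean of at least 500. Mouse KO4 also had the lowest low-fat value of Slco1a1 and the highest high-fat value of Abcc3. A list of genes that are female-biased in liver summed to 1297 and 2808 in its libraries, the highest of each fraction, and a list of male-biased genes to 48792 and 59321, the lowest of each. Xist was at most 6 and the Y-linked Ddx3y at least 1444 in every library of the series. Whether any of these values bears on Slco1a4 was not tested.

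The canalicular pumps did not move together. Abcc2, the conjugate export pump, was 12013, 16616 and 14640 reads per 20 M in WT low-fat and 15321, 20350 and 17228 in WT high-fat cells. In the KO mice it was 13233, 18835 and 18349 in low-fat and 19133, 20180 and 19740 in high-fat cells, with the fractions overlapping in both genotypes after scaling (in the deposited values those of the KO mice did not). Its difference averaged 0.215 ± 0.119 (SD, n = 6 mice), a fold of 1.16, and limma's adjusted p over both genotypes was 0.0732 with the block (SE 0.0649) and 0.365 without (SE 0.115).

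Abcb11, the rate-limiting pump for bile salts, was 17524, 19782 and 17654 reads per 20 M in WT low-fat and 15560, 17706 and 17012 in WT high-fat cells. The KO mice had 18367, 15604 and 18468 in low-fat and 16542, 15440 and 17671 in high-fat cells. Its mean difference was -0.157 ± 0.118 (SD, n = 6 mice), and limma's adjusted p over both genotypes was 0.16 with the block (SE 0.0649) and 0.372 without it (SE 0.0854). The WT fractions did not overlap after scaling and overlapped in the deposited values. Without mice WT1 and KO2 the blocked estimate was -0.07 (limma adjusted p = 0.471).

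Abcb4, which flips phosphatidylcholine into bile, was 7368, 8551 and 8418 reads per 20 M in low-fat and 7873, 9263 and 9661 in high-fat cells of the WT mice. The KO mice had 9140, 7409 and 7536 in low-fat, then 10113, 8482 and 7664 in high-fat cells. It was higher in high-fat cells in 5 of 6 mice after scaling, in all 6 in the deposited values and in 4 with median-of-ratios scaling, so its direction rests on the scaling.

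Abcc3, the basolateral exporter that returns conjugated anions to blood, had the largest difference of the 10 genes. Its WT values were 4089, 6433 and 9011 reads per 20 M in low-fat and 7335, 8997 and 12345 in high-fat cells. Its KO values were 2618, 8758 and 6636 in low-fat and 5846, 12867 and 8254 in high-fat cells. Mice differed so widely that the fractions overlapped in both genotypes, yet each mouse had more in its high-fat library, by 1.24 to 2.23 times in the deposited values. The mean difference was 0.58 ± 0.25 (SD, n = 6 mice), a fold of 1.5. The blocked limma fit over both genotypes gave SE 0.0906 and adjusted p = 0.00818, and the fit without the block SE 0.316 and adjusted p = 0.372. With a same-mouse correlation in place of the block the call was lost (limma adjusted p = 0.107, SE 0.217). The blocked call held without each mouse in turn, with adjusted p between 0.00336 and 0.0452. Without mice WT1 and KO2, where the difference was largest, the blocked estimate was 0.455 (limma adjusted p = 0.00182).

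Of the conjugating enzymes, Slc27a5, the bile acid coenzyme A ligase, was 19590, 20631 and 21237 reads per 20 M in WT low-fat and 15992, 18503 and 20026 in WT high-fat cells. In the KO mice it was 20449, 20436 and 22654 in low-fat and 17028, 20020 and 21523 in high-fat cells. All 6 mice had less in the high-fat library, by -0.205 ± 0.169 (SD, n = 6 mice) on the log2 scale, and limma's adjusted p over both genotypes was 0.13 with the block (SE 0.0773) and 0.32 without it (SE 0.102). The WT fractions did not overlap after scaling and overlapped in the deposited values. The difference was largest in mice KO2 and WT1, and the blocked estimate without them was -0.084 (limma adjusted p = 0.398).

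Baat, the amino acid transferase, was 6070, 6390 and 6264 reads per 20 M in low-fat and 5835, 5698 and 6287 in high-fat cells of the WT mice. For the KO mice the values were 6059, 6386 and 6100, then 5637, 6692 and 6074. Its highest value was 1.19 times its lowest, the narrowest range of the 10 genes, and it was lower in high-fat cells in 4 of 6 mice.

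**Figure D2:**
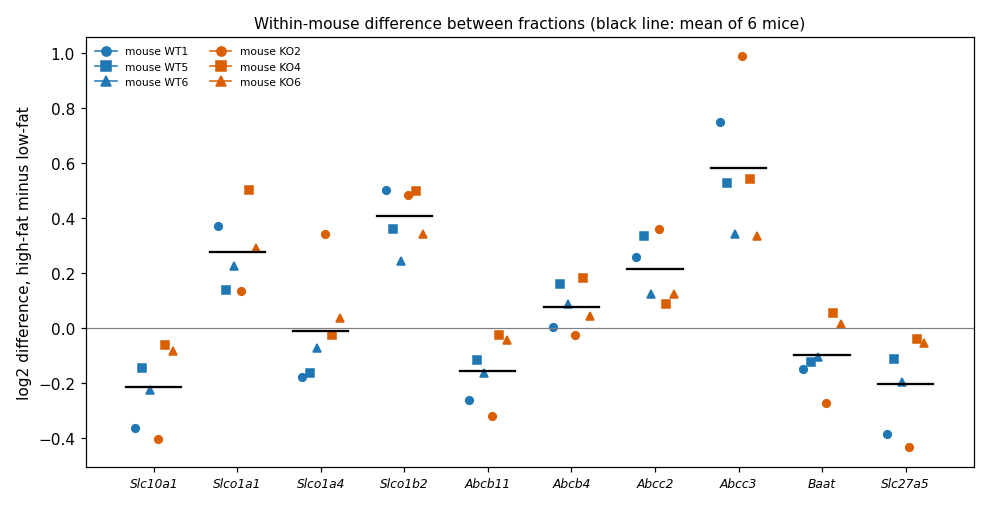
Difference between the high-fat and low-fat library of each mouse (log2, after scaling by trimmed means) for the 10 genes, with WT mice in blue and KO mice in orange and the mean of 6 mice as a black line. Slco1a1, Slco1b2, Abcc2 and Abcc3 lie above 0 in all mice and Slc10a1, Abcb11 and Slc27a5 below it, and mice WT1 and KO2 (circles) lie lowest for Slc10a1, Abcb11 and Slc27a5.

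Each member was also tested alone by a two-sided exact sign-flip permutation test over the 6 mice. This exact test gave p = 0.03125, the smallest value 6 mice allow, for each of the 7 members that moved one way, 0.906 for Slco1a4, 0.0938 for Abcb4 and 0.125 for Baat. Any gene whose 6 differences share a sign gets that smallest value, so the 7 values restate the directions and add no evidence. These 10 p-values are not adjusted. Their weight can be read from the background: 9.96% of all tested genes were higher in high-fat cells in all 6 mice and 11.6% lower. Among the 5933 tested genes with a mean of at least 500, to which all 10 members belong, 3.88% were higher and 21.9% lower. With the deposited scaling these shares were 5.53% higher and 11.2% lower, and 5 members were higher (Abcb4 as well) and 3 lower. The direction of these 7 members was the same in all 6 mice under the deposited scaling and under median-of-ratios scaling.

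In the limma fits across all genes, 5.77% of genes were called between fractions over both genotypes, and 11.0% with the mouse as a block, 6.76% being higher in high-fat cells. None of the 10 members was called in the first fit (1 had an unadjusted p under 0.05) and 3 in the blocked fit, all higher. The median member difference was 0.031 on the log2 scale, with 5 members higher and 5 lower, and the median of all tested genes was -0.022. Within WT alone, no gene was called with or without the block (0.0%; 1847 genes and, with the block, 3209 had an unadjusted p under 0.05). Within KO alone 0.839% of genes were called, and 1.7% with the block, none of them members. The smallest adjusted p of a member with the block was 0.0918 in WT and 0.06 in KO, both for Abcc3.

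Within single genotypes some members separated the fractions without overlap. In WT these were Slco1a1, higher in high-fat cells as were 9.64% of all tested genes, and Slc10a1, Abcb11 and Slc27a5, lower as were 7.73%. This is after scaling: in the deposited values Slco1a1 and Slc10a1 did not overlap either, and Abcb11 and Slc27a5 did. The WT log2 fold changes were 0.245 for Slco1a1 (SE 0.194, limma adjusted p = 0.678), -0.245 for Slc10a1 (SE 0.173, limma adjusted p = 0.64), -0.18 for Abcb11 (SE 0.121, limma adjusted p = 0.613) and -0.23 for Slc27a5 (SE 0.144, limma adjusted p = 0.585). In KO it was Slco1b2, higher as were 7.8% of genes, at 0.44 on the log2 scale (SE 0.168, limma adjusted p = 0.37), while 5.57% of genes were lower without overlap and no member was. An exact permutation test of 3 libraries against 3 gives p = 0.1 for each of these, the smallest it can give.

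Ratios of 2 members within a library do not depend on how libraries are scaled to each other, and were chosen after their values were seen. Slco1b2 over Slc10a1, the sodium-independent over the sodium-dependent uptake carrier, lay between 1.43 and 1.95 in the 6 low-fat libraries and between 2.06 and 2.87 in the 6 high-fat libraries, with no overlap. Abcc3 over Abcb11, the exporter towards blood over that towards bile, lay between 0.143 and 0.561 in low-fat and between 0.353 and 0.833 in high-fat libraries. That ratio was higher in the high-fat library of each of the 6 mice, by 1.3 to 2.48 times. Both numerators were higher and both denominators lower in every mouse, so both ratios had to rise in all 6. Their rise is no further evidence, and only its size is added. Abcc2 over Abcb11 and Slco1a1 over Slc10a1 rose in all 6 mice for the same reason.

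**Figure D3:**
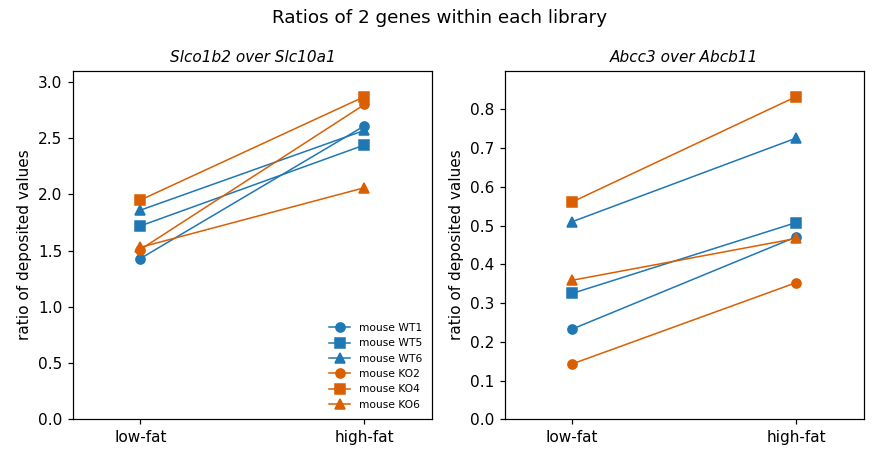
Ratio of deposited values of Slco1b2 over Slc10a1 (left) and Abcc3 over Abcb11 (right) in the low-fat and high-fat library of each mouse, WT in blue and KO in orange, axes from 0. All 6 lines rise in both panels, which follows from the direction of each gene in every mouse. Only the left panel separates the fractions without overlap.

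Other cell types and liver zones moved with the fractions. Sums of marker lists are of deposited values, without the scaling used in the fits. Markers of pericentral hepatocytes, the cells near the central vein, summed to 1.37 to 2.05 times the low-fat level in the high-fat library of a mouse, and 6 of 10 were called higher (8 with the block). Markers of periportal hepatocytes summed to 0.688 to 0.806 times the low-fat level, with 6 of 10 called lower (9 with the block). Of the non-parenchymal lists, 9 of 9 tested stellate cell, 10 of 10 sinusoidal endothelial and 8 of 10 Kupffer cell and macrophage markers were called higher in high-fat cells in limma over both genotypes. The lymphocyte list did not follow: 3 of its 8 genes were tested and 0 called. Its sums, of at most 402 reads per 20 M, were 0.354 to 7.0 times the low-fat level and higher in 4 of 6 mice. Stellate markers summed to 152 to 721 reads per 20 M in low-fat and 2217 to 3825 in high-fat libraries. Endothelial markers summed to 1212 to 2967 and 5114 to 16177, and macrophage markers to 483 to 1371 and 2140 to 11664.

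The macrophage sum was 11.1 and 20.9 times higher in the high-fat library of mice WT1 and KO2, and 1.75 to 3.46 times in the other 4 mice. RNAs that are retained in the nucleus (4 of 5 tested, none called over both genotypes) summed to 1.43 and 1.49 times the low-fat level in the same 2 mice, and to 0.763 to 1.24 times in the other 4. Most of that sum was 1 predicted gene, Gm26917, with means of 301118 in low-fat and 345931 in high-fat libraries. Malat1 averaged 44251 and 61636, and Neat1 20374 and 22878. Mice WT1 and KO2 had the lowest differences of Slc10a1, Abcb11 and Slc27a5 and the highest of Abcc3. General hepatocyte markers (11 of 12 matched) summed to between 0.891 and 1.07 times the low-fat level. The lowest of these ratios were those of mice KO2 (0.891) and WT1 (0.91). Over both genotypes, 9 of the 11 markers were lower in high-fat cells after scaling and 2 higher. Their median was -0.126 on the log2 scale, and none was called. The 10 bile acid genes summed to between 1.05 and 1.14 times the low-fat level. Of the markers of cholangiocytes, the bile duct cells, Krt7 and Krt19 were at most 5 and 7 reads per 20 M and Cftr and Cldn4 at most 2, and the list of 10 summed to 0.844 to 1.01 times the low-fat level. Fewer cells of a type and less RNA per cell cannot be told apart in such bulk samples, and the part that zone, other cells or nuclear RNA have in the members' differences was not tested.

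**Figure D4:**
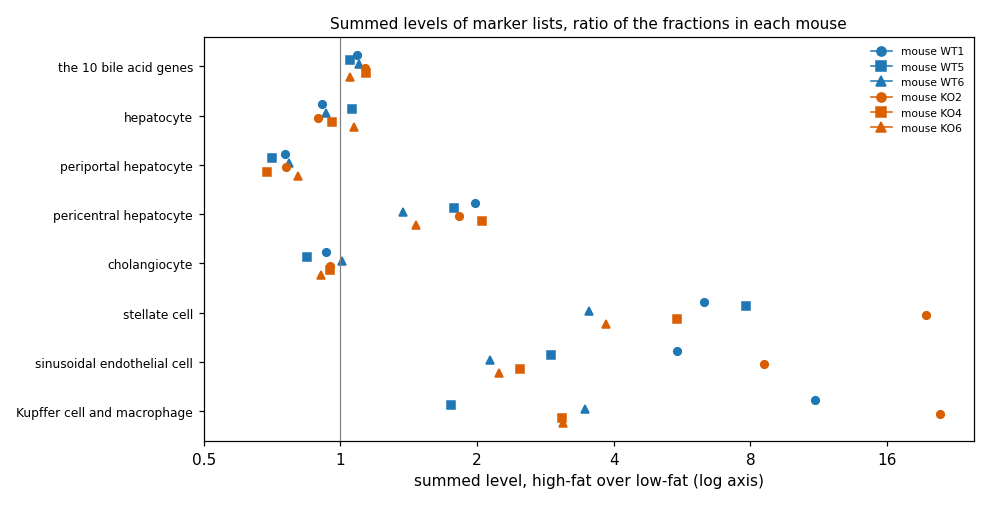
Ratio of the summed deposited values (not scaled) of marker lists in the high-fat over the low-fat library of each mouse. The lymphocyte list is not shown. The axis is logarithmic, with WT in blue and KO in orange. Stellate, endothelial and macrophage lists lie above 1 in all mice, highest for the macrophage list in mice KO2 (20.9) and WT1 (11.1), the periportal list lies below 1, and the bile acid genes lie between 1.05 and 1.14.

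The gene whose log2 values were most alike to those of Slco1b2 over the 12 libraries of 6 mice, among 9437 candidates with a mean of at least 100, was Cyp2c29, a member of the pericentral list (Pearson r = 0.978). Cyp2c38 was most like Abcc3 (r = 0.929), Urad most like Slc10a1 (0.975) and Habp2 most like Abcb11 (0.931). The nearest were Susd4 for Slco1a1 (0.926), Map2k6 for Slco1a4 (0.95), Rnf186 for Abcc2 (0.942), Mtus1 for Abcb4 (0.942) and Tm9sf2 for Baat (0.978). These correlations describe libraries that share mice and fractions, and they carry no test. Within the set, Slco1b2 and Abcc3 were each other's nearest member (r = 0.909), and so were Slc10a1 and Slc27a5 (r = 0.897).

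The comparison of KO with WT cells asked whether loss of Ptprk changed these genes. Ptprk itself was 2724 to 2883 reads per 20 M in WT low-fat and 1117 to 1364 in KO low-fat libraries, and 2174 to 2578 against 1179 to 1217 in high-fat libraries, and it fell in both fractions (limma, -1.13 and -0.99 on the log2 scale, SE 0.0935 each, adjusted p = 0.0013 and 0.00501). Reads of the gene remained in every library labelled KO. No bile acid gene separated KO from WT libraries in either fraction. By limma, 0.00604% of genes were called in low-fat and in high-fat cells, with or without the block, and the single gene was Ptprk. No member reached an unadjusted p under 0.05 without the block (1 did with it, in low-fat cells).

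**Figure D5:**
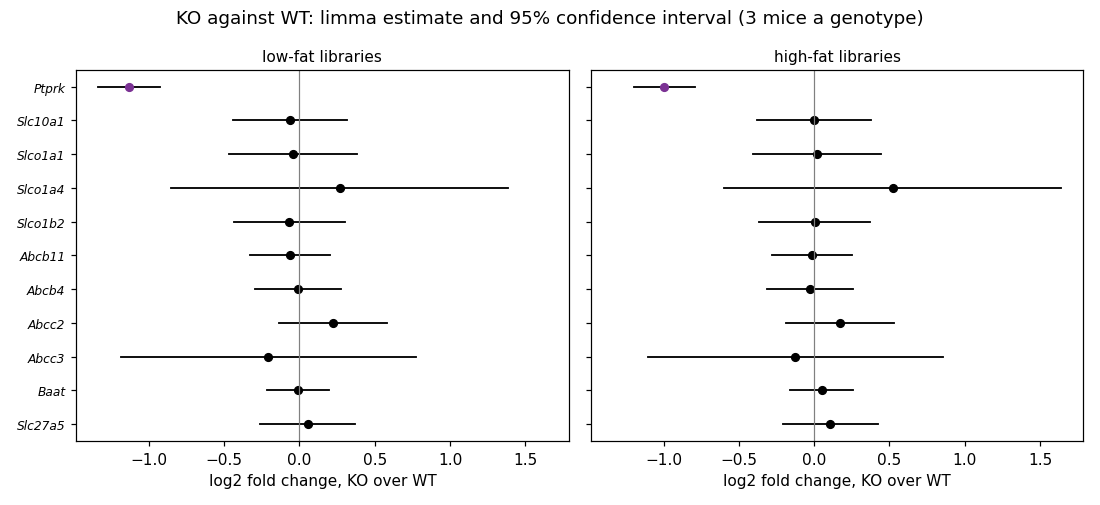
Log2 fold change of KO over WT (limma, point) with its 95% confidence interval (line) for Ptprk and the 10 genes, in low-fat (left) and high-fat libraries (right), 3 mice a genotype. Ptprk lies near -1 in both panels, the intervals of all 10 members include 0, and those of Slco1a4 and Abcc3 are the widest.

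In low-fat cells Slco1b2 averaged 18471 ± 3037 reads per 20 M with the WT and 17557 ± 3011 with the KO genotype, and 24566 ± 1897 and 24599 ± 2738 in high-fat cells (SD, n = 3 each). Abcb11 stood at 18320 ± 1268 and 17480 ± 1625 in low-fat and 16759 ± 1095 and 16551 ± 1116 in high-fat cells of WT and KO. Baat was 6241 ± 161 and 6182 ± 178 in low-fat and 5940 ± 308 and 6134 ± 530 in high-fat cells. These genes' means lay well inside each other's spread.

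The precision of the KO comparison differed by gene. The 95% confidence interval of Baat ran from -0.21 to 0.20 in low-fat and from -0.16 to 0.26 in high-fat cells on the log2 scale. That of Abcb11 ran from -0.33 to 0.20 and from -0.28 to 0.25. The widest were those of Slco1a4, from -0.85 to 1.39 and from -0.60 to 1.64, and Abcc3, from -1.19 to 0.77 and from -1.10 to 0.85. A difference of 1.5 times in either of these 2 genes would therefore lie within the interval. Abcc2 had the largest KO mean relative to WT after Slco1a4, 117% in low-fat and 112% in high-fat cells, with intervals of -0.14 to 0.58 and -0.18 to 0.53. Of all tested genes, 5.43% in low-fat and 5.19% in high-fat cells separated the genotypes without overlap, against none of the 10 members.

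Whether the fractions differed by another amount in KO than in WT cells was tested as an interaction. No gene was called by limma (0.0%, with or without the block; 24 and 66 genes had an unadjusted p under 0.05). The members' interaction estimates ran from -0.048 for Abcc2 to 0.254 for Slco1a4. With the block the intervals were -0.34 to 0.50 for Abcc3, -0.23 to 0.37 for Slco1b2 and -0.24 to 0.36 for Slc10a1. For Slco1a4 the interval was -0.01 to 0.52 on the log2 scale, and after scaling its difference was below 0 in all 3 WT mice and above 0 in 2 of the 3 KO mice. In the deposited values 3 of 6 mice were higher in high-fat cells, WT6 among them (991 and 1017).

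The rest of the pathway was read from lists of genes with known roles, in the comparison of fractions over both genotypes. The counts below stand against 5.77% of all tested genes called in this comparison, and 11.0% with the block. Of the 16 tested bile acid synthesis genes, 1 was called lower, and with the block 3 were called higher and 1 lower. The list's median was -0.025, against -0.022 for all genes. Cyp7a1, the rate-limiting enzyme of the classic pathway, was 2262 ± 1326 reads per 20 M in low-fat and 3651 ± 1539 in high-fat cells of WT mice, while KO mice had 1234 ± 730 and 1912 ± 851 (SD, n = 3 each). It was higher in the high-fat library of all 6 mice (blocked log2 fold change 0.66, SE 0.126, limma adjusted p = 0.0166, and 0.388 without the block).

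Cyp27a1, which starts the alternative pathway, was higher by 0.47 (SE 0.0621, blocked limma adjusted p = 0.00535, and 0.0505 without the block). Akr1c6, a hydroxysteroid reductase, was higher by 0.254 (SE 0.0629, blocked limma adjusted p = 0.0407, and 0.153 without). Cyp39a1, an oxysterol hydroxylase, fell with the fat content, being 588 ± 61 (low-fat) and 351 ± 102 (high-fat) in WT, 709 ± 115 and 516 ± 120 in KO (limma adjusted p = 0.0329, and 0.00744 with the block). The most abundant genes of the list, Scp2, Slc27a2 and Hsd3b7, were not called.

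Of 14 tested genes of bile acid sensing and regulation, 1 was called higher and 1 lower, and 2 and 2 with the block (list median -0.082). The aryl hydrocarbon receptor gene Ahr was higher by 0.69 (SE 0.175, limma adjusted p = 0.043, and 0.00834 with the block) and Fgfr4, the hepatocyte receptor of the intestinal hormone that represses bile acid synthesis, lower by -0.32 (SE 0.0682, limma adjusted p = 0.0181, and 0.00744 with the block). With the block, the nuclear receptor gene Nr1i3 was also higher, by 0.699 (SE 0.154, limma adjusted p = 0.0276), and Hnf4a, a master regulator of hepatocyte genes, lower, by -0.284 (SE 0.0652, limma adjusted p = 0.0322). Rxra and Ppara, the other most abundant genes of the list, were not called.

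Of 19 other tested hepatic transporters, 1 was called higher and 1 lower, and 2 and 4 with the block (list median -0.09). Abcc4, a second basolateral exporter, was 16.7 ± 0.577 reads per 20 M in low-fat and 45.7 ± 27.1 in high-fat cells of WT mice, against 11.3 ± 2.08 and 40.0 ± 10.8 in those of KO mice (limma adjusted p = 0.00868, and 0.0145 with the block), far below the level of Abcc3. Its highest values, 76 and 52, were in the high-fat libraries of mice WT1 and KO2, which also had the highest macrophage sums. The part of other cells in the Abcc4 difference was not tested. The prostaglandin carrier Slco2a1 was lower by -0.37 (SE 0.0707, limma adjusted p = 0.0117, and 0.00628 with the block). The organic anion carrier Slc22a7 (-0.69, limma adjusted p = 0.00529), Slc10a5, a relative of Slc10a1 (-0.199, limma adjusted p = 0.0273), and the canalicular phospholipid flippase Atp8b1 (-0.26, limma adjusted p = 0.0466) were lower with the block. The cholesterol exporters Abcg5 and Abcg8, and Abcc6, were not called.

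Of 13 genes for apical trafficking and the canalicular scaffold, 1 was called lower with or without the block (list median -0.051). It was Slc9a3r1, a scaffold protein under the apical membrane, which was 4714 ± 433 reads per 20 M in WT low-fat and 3954 ± 144 in WT high-fat, and 5116 ± 381 and 4513 ± 113 in KO cells (limma adjusted p = 0.0423, and 0.0432 with the block). Rdx, the main ezrin-family protein of hepatocytes, and the tight junction gene Cldn1 were not called. In none of these 4 lists was a gene called between KO and WT cells or in the interaction.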

How the data were processed

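The 12 libraries of polyA RNA come from low-fat and high-fat hepatocytes of 6 mice. The deposited values are a score: the authors scaled the reads of each gene to 20 M per library and rounded up, read from the values themselves. The build is mm9 per the submitters' processing notes. Aligner, counter, annotation and strandedness are not given in the sources used here. All 12 columns were matched to samples by name. Depth, from 15.1 to 25 M reads, was estimated from the spacing of low values, and 3 reads correspond to 2.4 to 3.98 reads per 20 M (counting error only).

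The 16563 genes that reached a value of 10 in 3 or more libraries were scaled by the trimmed mean of M values and tested as log2(value + 2) with limma 3.58.1 (trend) in R 4.3.3, over 4 group means and all libraries. Folds of low genes are understated on this scale. P-values are two-sided with Benjamini-Hochberg adjustment over all tested genes, and calls were made below 0.05. The trimmed means were first taken over all genes of the table and then, after those results had been seen, over the tested genes, as is usual for the method. Both versions are given. A blocked fit added a term for each mouse (for KO against WT, the replicate number, which joins different mice). The pairing of fractions comes from the mouse names in the labels. Deviations from group means correlated between the libraries of a mouse by 0.516 on average in WT (0.469 to 0.582) and by 0.165 in KO (-0.00869 to 0.46). Between different mice with the same replicate number they correlated by 0.314 in low-fat (0.251 to 0.396) and 0.233 in high-fat libraries (-0.171 to 0.49). In KO the values of a mouse were thus no more alike than those of different mice with 1 number. The fits were tested on simulated data.

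Alternatives were other scalings, pseudocounts of 0.5 and 10, no filter, the block, a same-mouse correlation, only the libraries compared, and leaving out libraries. Added after seeing the data were trimmed means over all genes and the blocked fit under other scalings and without mice, as were the within-library ratios and the background of genes with a mean of at least 500.

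The members and gene lists were chosen with earlier results of these data known. Fold changes with p are given for members whose groups did not overlap, that were called, or that moved one way in all 6 mice. The lists name genes that were called and their 3 most abundant genes. For each member the gene most alike was taken by Pearson's r. Genes that these rules name and the text does not are not reported here.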

Additional observations from a re-analysis of the deposited data

How the results depend on the processing

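The 12 member fold changes given with a test were recomputed under 320 alternatives in all, and none reversed. All 12 had been chosen because their groups did not overlap or because every mouse moved one way. A reversal was therefore unlikely from the start, and its absence adds little evidence. Of the 320, 288 kept their side of the threshold and 32 passed it where the unblocked fit had not. The blocked fit gave 3 members and 1819 genes over both genotypes (0 members and 956 genes without it), and 282 genes in KO (139 without it). Blocked fits under other scalings, added after seeing the data, moved with the scaling. Over both genotypes they gave 2 members (Abcc3 and Slco1b2) and 1732 genes with trimmed means over all genes, 4 (with Slco1a1 and Abcc2) and 1521 with the deposited scaling, and 3 and 1670 with median-of-ratios scaling. In KO the same fits gave 379, 352 and 291 genes, with Abcc3 called in the first and Slco1b2 in the second (1 member each). In WT the block gave 0 genes (smallest adjusted p 0.0553) but 195 and 173 with the first 2 scalings, so that count sits at the threshold. For KO against WT in high-fat cells, the block with trimmed means over all genes gave 2 genes.

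Without the block, trimmed means over all genes gave 951 genes over both genotypes and 173 in KO, and no member. The deposited scaling gave 1 member over both genotypes, Slco1b2 (0.459, adjusted p = 0.0321). A same-mouse correlation (0.38) gave 1 member (Slco1b2) and 1992 genes over both genotypes, 409 genes in WT and 544 in KO. No filter gave 82 genes in KO, and a pseudocount of 10 gave 1 gene in WT. Fits of only the libraries compared gave 0 genes in KO and 0 in both KO against WT comparisons, where Ptprk was lost.

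Leaving out 1 library moved the counts to between 0 and 37 genes in KO and between 602 and 1101 over both genotypes, and the count for KO against WT in high-fat cells to between 0 and 1. In the blocked fit, leaving out 1 mouse gave 1 to 3 members and 551 (without WT1) to 2662 (without KO4) genes over both genotypes, with 1579 without KO2, and 0 to 93 genes in KO. Without mice WT1 and KO2 it gave 3 members and 1167 genes over both genotypes, 1 member (Abcc3) and 416 genes in WT, and 3 members (Abcc3, Slco1b2 and Slco1a1) and 429 genes in KO. The cause of these shifts was not tested. The replicate block changed no other member call. With 3 mice a genotype, the intervals of Slco1a4 and Abcc3 allow sizeable differences between KO and WT.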
